A study of Mus musculus with 8 samples.

Results

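Loss of TCF-1 was examined in Scid.adh, a mouse cell line from a thymic lymphoma that is used as a model of DN3 thymocytes. The comparison took all 4 Scid.adh RNA-seq libraries of the 8 libraries analysed in the series: 2 of genotype wild type that carried an empty vector, and 2 of genotype Tcf7-/-, labelled TCF1 KO. The libraries were chosen by these labels alone, and genes are described where their mean over the 4 libraries was at least 5 CPM (counts per 1000000 counts, scaled by TMM factors). The labels name no guide, vector or clone, so neither the deleted part of Tcf7 nor the number of clones behind the knockout can be given here. Whether a group's 2 libraries stem from separate cultures is not labelled either, and p-values then measure only how these libraries spread, and that spread may be technical. The series' stated purpose is to study how TCF-1 reorganises the three-dimensional genome, and this comparison asks which transcripts change when a T-lineage line loses it.

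TCF-1, the product of Tcf7, is an HMG-box protein that binds DNA and bends it. It works with beta-catenin as an activator or with Groucho (TLE) corepressors as a repressor, and its relative LEF-1 reads the same sequence. In the thymus, Notch1 signals switch Tcf7 on in the earliest precursors, and TCF-1 then supports the genes of the T lineage. At the DN3 stage (double negative 3, before CD4 and CD8 appear) thymocytes are committed to that lineage, rearrange their T cell receptor beta genes and depend on Notch and on the pre-T cell receptor.

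Tcf7 (ENSMUSG00000000782, GRCm38 chromosome 11, 52252371 to 52283014, minus strand) was read at 1318 and 1325 CPM in the empty-vector libraries and dropped to 646.4 and 624.5 CPM in those of the knockout. The knockout libraries thus held 48.1% of the empty-vector level (log2 fold change -1.06, SE 0.06, edgeR adjusted p = 5.06e-08), and the groups did not overlap. A count over a whole gene does not show which of its exons were read. Depth over genes was 10392402 and 9847239 counts for empty-vector cells against 7740198 and 8217933 for knockout cells, yet the knockout libraries held counts for more genes (20406 and 20463 against 18084 and 18041).

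The line carried most of the DN3 genes looked for. Rag1, Il2ra, Ptcra, the Cd3 genes, Notch1, Notch3, Bcl11b and Gata3 were all above 5 CPM in every library. Rag2, the partner of Rag1 in receptor gene cutting, was near 0 in all 4 libraries (0.705, 0.427, 0.122 and 0.356 CPM, empty vector first), and so were Cd4 (0.101 to 0.608 CPM), Cd44 (0.101 to 0.122 CPM) and the receptor alpha constant region Trac (at most 0.107 CPM). Of the marker lists for other blood cells, 15 of 16 B lineage, 12 of 17 myeloid, 7 of 12 erythroid and megakaryocyte and 23 of 31 NK and innate lymphoid genes averaged under 1 CPM, among them Ms4a1 (B cells), Ctsg (myeloid cells) and Ncr1 (NK cells) at 0 counts in all 4 libraries. Members above 5 CPM were Pou2af1 of the B lineage list, Cebpa, Cebpb and Itgam of the myeloid list, Gata1 of the erythroid list, and Gzma, Id2, Rora, Tbx21, Eomes and Nfil3 of the NK and innate lymphoid list. Summed over whole lists, B lineage markers stayed between 10.1 and 11.1 CPM, erythroid markers between 14.3 and 15.9 CPM, and myeloid markers went from 31.0 and 29.8 CPM to 46.3 and 45.9 CPM. In bulk RNA, fewer cells of a type and less RNA per cell cannot be told apart.

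Of the 9000 tested genes that reached 5 CPM on average, edgeR called 2688 (29.9%) at an adjusted p under 0.05, 923 higher in the knockout (10.3%) and 1765 lower (19.6%). Most of these changes were small. Genes called higher had a median log2 fold change of 0.52 and genes called lower one of -0.38, while 161 genes rose and 92 fell at least 2-fold (1.79% and 1.02% of those tested). At 4-fold the numbers were 33 and 34 genes. Of the 9000 genes, 180 had an empty-vector mean under 5 CPM and so entered through their knockout values, of which 114 were called higher and 0 lower, and 108 entered through their empty-vector values alone, of which 65 were called lower. Members of gene lists that entered in this way had to differ and are named with their lists. The excess of falls depended on the setting. It was also there with DESeq2 size factors (951 higher, 1721 lower), in DESeq2 (542 and 1036) and without a filter (615 and 2052), while with upper-quartile factors 1428 genes were higher and 1103 lower, after a correction against expression level 1196 and 1182, and in a fit on genes of at least 5 CPM alone 1242 and 1247.

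Direction went with level. Among the 2612 tested genes of 100 CPM or more, 865 fell and 194 rose, and among the 2154 genes from 5 to 20 CPM, 317 rose and 180 fell. Below 5 CPM, 938 of 2941 tested genes rose (31.9%) and 134 fell (4.56%), with a median log2 fold change of 0.58 against -0.06 for genes of at least 5 CPM. Reads outside any gene took 22.3% and 25.8% of all reads in the knockout against 21.3% and 21.6% with the empty vector, and the part of these reads in the general rise of low genes was not tested. The plot of change against level shows the wide upper edge at the left and the long row of small falls at the right.

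**Figure D1:**
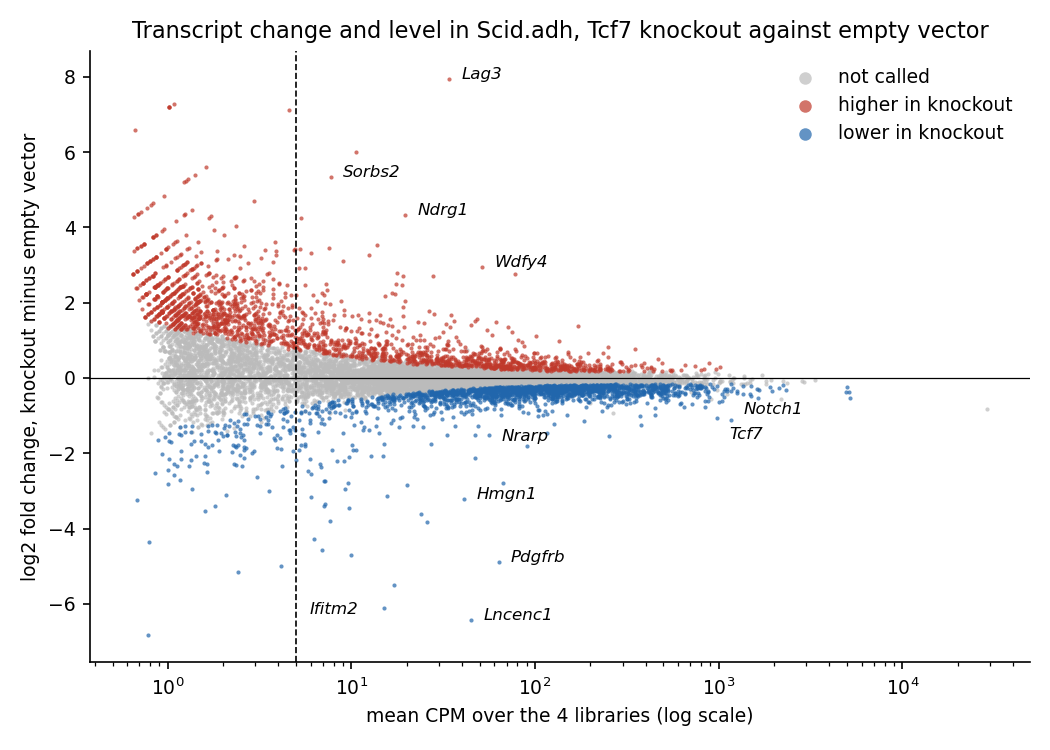
Each point is 1 tested gene, placed by its mean CPM over the 4 libraries (log axis) and its log2 fold change, knockout minus empty vector. Red genes were called higher, blue genes lower and grey genes neither, and the dashed line marks 5 CPM. Lag3 and Lncenc1 lie farthest from 0 among the named genes, and above 100 CPM blue points outnumber red ones.

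TCF-1 and LEF-1 read sequences around the core CTTTGA. Of the 24 genes with the largest rises and falls, 19 have a promoter in the RefSeq table, and the 3 printed here were chosen because they are those that hold the core, beside 1 Notch gene that holds none. Other large changes, those of Sorbs2, Galnt6, Ifitm2 and Cyp2c55 among them, had promoters without CTTTGA on either strand. Lncenc1, a long noncoding RNA gene, and Taf9b, a relative of a TFIID subunit gene, lost nearly all of their transcripts. Pik3cg, the catalytic subunit of the leukocyte lipid kinase PI3K-gamma, was nearly silent with the empty vector. Nrarp, the feedback inhibitor that Notch signals induce, is shown as the deepest fall among Notch response genes. The sequences are from RefSeq (GRCm38.p6), the 250 bases before the start of transcription, read 5′ to 3′ on the gene's strand, with CTTTGA or its reverse complement TCAAAG in capitals. They lie at chr13:97434720-97434969 (plus strand), chrX:106221159-106221408 (minus), chr12:32208660-32208909 (minus) and chr2:25180508-25180757 (plus).
Lncenc1: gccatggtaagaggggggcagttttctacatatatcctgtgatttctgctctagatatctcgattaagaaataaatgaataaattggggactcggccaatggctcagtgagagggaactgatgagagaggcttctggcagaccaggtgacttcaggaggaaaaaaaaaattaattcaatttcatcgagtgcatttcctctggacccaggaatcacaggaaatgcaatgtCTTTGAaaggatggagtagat
Taf9b: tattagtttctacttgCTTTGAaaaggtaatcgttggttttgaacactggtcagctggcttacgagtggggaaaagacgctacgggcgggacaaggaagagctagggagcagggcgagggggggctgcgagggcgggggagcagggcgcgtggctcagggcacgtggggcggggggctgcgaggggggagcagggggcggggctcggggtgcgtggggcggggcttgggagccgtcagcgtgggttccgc
Pik3cg: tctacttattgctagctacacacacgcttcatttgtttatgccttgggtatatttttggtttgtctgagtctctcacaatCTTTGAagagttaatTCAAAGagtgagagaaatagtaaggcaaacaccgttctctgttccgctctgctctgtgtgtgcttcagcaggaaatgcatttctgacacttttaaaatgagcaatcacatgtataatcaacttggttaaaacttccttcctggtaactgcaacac
Nrarp: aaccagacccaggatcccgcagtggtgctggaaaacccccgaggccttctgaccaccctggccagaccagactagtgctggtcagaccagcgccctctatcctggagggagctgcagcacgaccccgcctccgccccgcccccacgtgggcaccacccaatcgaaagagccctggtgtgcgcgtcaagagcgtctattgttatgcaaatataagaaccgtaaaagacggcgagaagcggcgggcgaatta
The Lncenc1 promoter holds 1 match whose first base lies at -21, counted from the start of transcription, that of Taf9b holds 1 at -234 and that of Pik3cg holds 2, at -170 and -155. For Pik3cg and Taf9b the table gives a second start, whose 250 bases hold 0 matches. Nrarp holds none, and none of the 7 Notch response genes that fell and have a promoter in the table holds one. In all, 13.8% of the 32851 RefSeq promoters hold the core on either strand, as do 12.5% of the 7139 genes of at least 5 CPM with a promoter, 12.2% of genes called higher, 11.6% of genes called lower and 12.8% of genes not called. Among genes called lower at least 2-fold the share is 20.6% (14 of 68), and among those called higher at least 2-fold it is 14.2% (17 of 120). Other forms of the site gave other orders. CTTTGAT, which extends the core, is held by 1.47% of genes lower at least 2-fold (1 of 68). It is held by 3.33% of those higher at least 2-fold (4 of 120) and 2.73% of genes of at least 5 CPM. CTTTGTT, which does not contain the core, is held by 4.41% (3 of 68), 10% (12 of 120) and 3.82% of these groups. Reverse complements were counted for both. These shares are a description of letters in a window, and binding was not measured in these libraries.

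Of the 12 genes with the largest rises, Wdfy4 was above 10 CPM with the empty vector and the other 11 were below 3 CPM. These 11 reached 5 CPM on average only through the knockout. Lag3, an inhibitory receptor of activated T cells that is related to CD4 (chromosome 6, 124904361 to 124911705, minus strand), went from 1 and 4 counts to 579 and 546 counts, or 0.101 and 0.427 CPM against 70.4 and 64.8 CPM. Its log2 fold change was 7.95 (SE 0.26, edgeR adjusted p = 5.38e-10). Ptms, which encodes the small acidic protein parathymosin and lies beside Lag3 (124913681 to 124920103), rose as well, from 12.6 and 14.0 CPM to 42.9 and 43.1 CPM (log2 fold change 1.69, SE 0.13). Ptms was chosen after its values were seen.

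Sorbs2, an adaptor of the actin cytoskeleton, went from 0.605 and 0.107 CPM to 13.9 and 16.3 CPM (5.32, SE 0.39). Ndrg1, a gene induced by hypoxia and iron lack, went from 1.81 and 1.92 CPM to 37.3 and 37.5 CPM (4.32, SE 0.19). Galnt6, a Golgi enzyme that starts O-linked sugar chains, rose by 4.26 (SE 0.38). Each of these 3 genes shares exon sequence with a neighbouring or antisense gene, and whether the counting used strand is not stated in the sources used here. Wdfy4, a BEACH-domain gene needed for antigen cross-presentation in dendritic cells, was the most read of the 12 in the knockout, at 87.2 and 94.5 CPM against 11.2 and 12.6 CPM (2.93, SE 0.11). Pik3cg rose from 1.11 and 0.641 CPM to 8.147 and 11.04 CPM (3.43, SE 0.35). The others were Whrn, a scaffold protein of hair cells (3.54), Tspan15, a tetraspanin partner of the protease ADAM10 (3.45), Dnaic2, a dynein chain of cilia (3.32), Chn1, a GTPase-activating protein for Rac (3.28), Tent5c, a poly(A) polymerase (3.11), and the transporter gene Slc16a11 (2.93). Genes were eligible for these 12, and for the 12 falls that follow, only where the libraries of the groups did not overlap, which held for 66.5% of all genes of at least 5 CPM.

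At the other end stood transcripts that were nearly lost. Lncenc1 fell from 93.1 and 84.4 CPM to 1.34 and 0.712 CPM, that is to 1.2% of its empty-vector level (-6.42, SE 0.19, edgeR adjusted p = 3.56e-10). Ifitm2, which restricts the entry of viruses, fell from 29.2 and 30.4 CPM to 0.122 and 0.712 CPM (-6.10, SE 0.32), and Cyp2c55, a cytochrome P450, from 34.9 and 31.8 CPM to 0.486 and 0.949 CPM (-5.51, SE 0.26). Pdgfrb, the receptor for platelet-derived growth factor B, which is best known from stromal cells, went from 120 and 125 CPM to 4.38 and 3.80 CPM (-4.90, SE 0.13). The other fibroblast markers looked for were at or under 1.51 CPM on average. Their sum without Pdgfrb was 4.33 and 2.24 CPM with the empty vector and 9.12 and 9.02 CPM in the knockout, and of the 4 that were tested the collagen genes Col1a1 and Col1a2 and the receptor gene Pdgfra were called higher, at a level where 31.9% of all genes were.

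Further losses took in a secreted factor, regulators of signalling and innate immune genes. Fam3c, a cytokine-like secreted protein, fell by 4.71 (SE 0.32) and Taf9b fell by 4.58 (SE 0.33; 13.3 and 13.1 to 0.608 and 0.475 CPM). Maml2, a Mastermind coactivator of the Notch transcription complex, went from 10.9 and 12.8 CPM to 0.243 and 0.949 CPM (-4.27, SE 0.39). Ifi202b, a DNA-binding protein of the HIN-200 family on chromosome 1, fell by 3.82 (SE 0.19). The ectoenzyme gene Bst1 (-3.79), the GTPase regulator genes Bcr (-3.61) and Arhgap31 (-3.41) and the inhibitory Fc receptor gene Fcgr2b (-3.45) completed the 12. All 24 genes named for the largest changes kept their direction when each library was left out in turn. They were chosen as called genes whose groups did not overlap, so this was nearly fixed beforehand and adds no support. The 12 falls were under 5 CPM in each knockout library, and so reached 5 CPM on average only through the empty vector. Ifitm2 and Cyp2c55 belong to families of genes alike in sequence, among which reads could have been split.

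**Figure D2:**
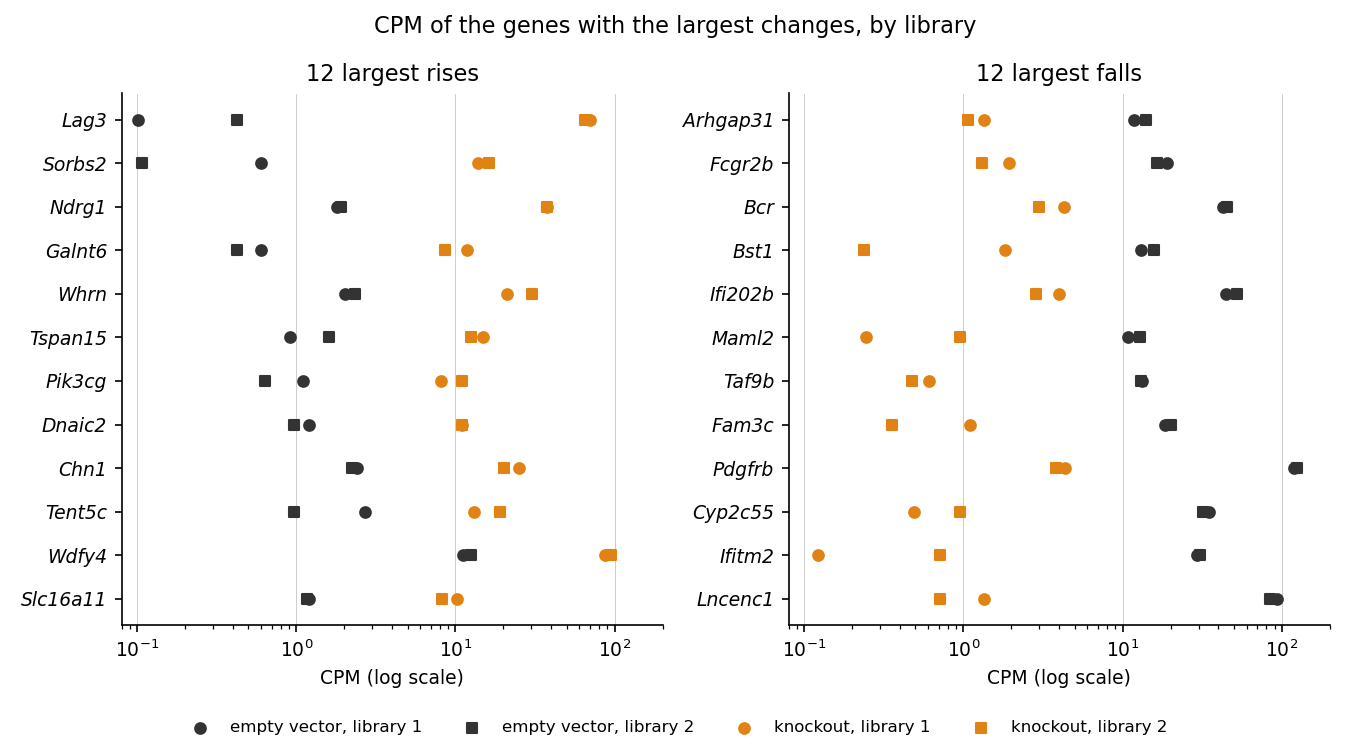
CPM (log axis) of the 12 largest rises, left, and the 12 largest falls, right, among named genes of at least 5 CPM. Each symbol is 1 library, dark for the empty vector and orange for the knockout, with circles for library 1 and squares for library 2. In every row the dark and orange symbols lie apart, and most distances between groups are many times those within one.

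Some of the leading genes stood beside others that moved the same way. Hmgn1, a nucleosome-binding protein on chromosome 16, fell from 74.3 and 74.4 CPM to 7.05 and 9.02 CPM (-3.21, SE 0.13). Its close neighbours Wrb, which encodes a receptor for tail-anchored proteins (-0.75, SE 0.10), and Sh3bgr (-3.16, SE 0.29; 10.9 and 10.8 to 1.09 and 1.31 CPM) fell with it. On chromosome 1 the HIN-200 genes Mndal (-2.94, SE 0.25) and Ifi203 (-2.12, SE 0.11) fell beside Ifi202b. These relatives are alike in sequence and Mndal and Ifi203 share exons, so reads could have been split between them. Lncenc1 lies on chromosome 13 between Enc1 (-1.93, SE 0.20), an actin-binding protein, and Arhgef28 (-1.27, SE 0.14), a guanine nucleotide exchange factor, which both fell. These neighbours were chosen after their values were seen. Sh3bgr, Mndal and Enc1 were under 5 CPM in each knockout library, and so reached 5 CPM on average only through the empty vector. Over all genes of at least 5 CPM, the next gene along the chromosome was called higher for 148 of 917 genes called higher (16.1% against 10.3% of all), and called lower for 454 of 1761 genes called lower (25.8% against 19.6%).

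Among lists with at least 5 members, that of the Notch response genes had the largest share called lower. Of 14 Notch response genes, 11 were tested and had at least 5 CPM, and 8 of these fell and 0 rose. Their median log2 fold change was -0.62 against -0.06 over all genes, of which 19.6% fell and 10.3% rose. The members Notch1, Il2ra and Dtx1 averaged more than 100 CPM, and of all genes of 100 CPM or more 33.1% fell and 7.43% rose. Notch1 itself, which is both receptor and target (chromosome 2, 26457903 to 26516663, minus strand), went from 1633 and 1547 CPM to 679 and 793 CPM (-1.11, SE 0.07, edgeR adjusted p = 3.72e-07). Nrarp fell from 85.7 and 80.8 CPM to 28.2 and 30.0 CPM (-1.52, SE 0.10). Dtx1, which encodes the Notch-binding ubiquitin ligase Deltex, fell from 576.5 and 570.9 CPM to 334 and 327 CPM (-0.79, SE 0.06). The repressor gene Hes5 (-0.85, SE 0.17) and the pseudokinase gene Trib2 fell as well. Hes1, the classical Notch-induced repressor, showed no such fall, at 58.2 and 60.1 CPM against 63.1 and 60.8 CPM (0.07, SE 0.09, adjusted p = 0.603). The 8 falls and 0 rises were counted also under each of 10 alternatives, with medians from -0.42 to -0.62.

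Of 21 receptor and machinery genes of at least 5 CPM, 7 fell and 1 rose (median -0.15), beside 19.6% and 10.3% of all genes. Maml2 entered only through its empty-vector values and the gene that rose only through those of the knockout. Notch2 fell from 240.3 and 239.7 CPM to 121 and 158 CPM (-0.78, SE 0.10), and Psen2, a catalytic subunit of gamma-secretase, from 25.7 and 28.2 CPM to 15.3 and 17.2 CPM (-0.73, SE 0.14). Notch3 was at 214 and 207 CPM against 213 and 219 CPM and its groups overlapped (0.04, SE 0.06, adjusted p = 0.706). The Mastermind genes Maml1 and Maml3 and Rbpj, which encodes the DNA-binding partner of Notch, did not pass the test, at 0.15, -0.03 and -0.25. The 1 rise was that of Numbl, a relative of the Notch inhibitor Numb (1.05, SE 0.27), and it was lost without empty-vector library 2 (0.90) and in DESeq2.

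Of 16 tested T lineage surface receptor genes of at least 5 CPM, 9 fell and Lag3 and Cd28 rose (median -0.33), beside 19.6% and 10.3% of all genes, and Lag3 entered only through its knockout values. Il2ra, the interleukin-2 receptor alpha chain that marks DN2 and DN3 cells, was counted among Notch response genes and fell from 1259 and 1264 CPM to 797 and 845 CPM (-0.62, SE 0.06). Ptcra, the pre-T cell receptor alpha chain, fell from 71.7 and 73.5 CPM to 47.9 and 45.1 CPM (-0.64, SE 0.09). Thy1 fell by 0.59 (SE 0.06), the adhesion receptor gene Cd2 by 0.79 (SE 0.09) and Cd3g, a signalling chain of the receptor complex, by 0.49 (SE 0.06). Cd3d did not pass the test (102 and 92.2 against 92.7 and 86.9 CPM; -0.11, adjusted p = 0.317). Cd3e passed at -0.21 (adjusted p = 0.0176) and was lost without empty-vector library 1 (-0.19) or library 2 (-0.23), in DESeq2, and with upper-quartile factors. Cd28, the main costimulatory receptor, rose from 39.2 and 38.8 CPM to 63.6 and 64.1 CPM (0.71, SE 0.09).

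Behind the receptor, 9 of 31 signalling genes rose and 5 fell, with a median of 0.03 (8 and 3 without empty-vector library 1). Beside this list and the next ones, 10.3% of all genes rose and 19.6% fell. Trat1, a transmembrane adaptor of the receptor complex, rose from 19.4 and 19.1 CPM to 48.3 and 50.7 CPM (1.36, SE 0.11). Sla, an adaptor that lowers receptor levels in thymocytes, rose from 66.1 and 61.0 CPM to 131 and 144 CPM (1.12, SE 0.08). The adaptor gene Grap2 rose by 0.34 (SE 0.06). Rasgrp1, which couples the receptor to Ras, fell from 90.2 and 79.1 CPM to 55.2 and 54.6 CPM (-0.63, SE 0.09). Of 12 NFAT and calcineurin genes, 3 fell and 2 rose (2 and 0 without empty-vector library 1, 1 and 1 without library 2), led by Nfatc2, which was at 118 and 123 CPM against 59.6 and 67.4 CPM (-0.92, SE 0.08). In the group of receptor gene recombination, 3 of 8 members fell and 0 rose (median -0.06, turning to 0.02 with upper-quartile factors). Xrcc6, which encodes the DNA end-binding protein Ku70, fell from 412 and 433 CPM to 323 and 301 CPM (-0.44, SE 0.06). Rag1 (842 and 813 to 629 and 710 CPM; -0.31) and Xrcc5 (-0.23) passed with all 4 libraries and were lost without empty-vector library 1 (-0.28 and -0.22) or library 2 (-0.33 and -0.24), and after the correction against level.

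**Figure D3:**
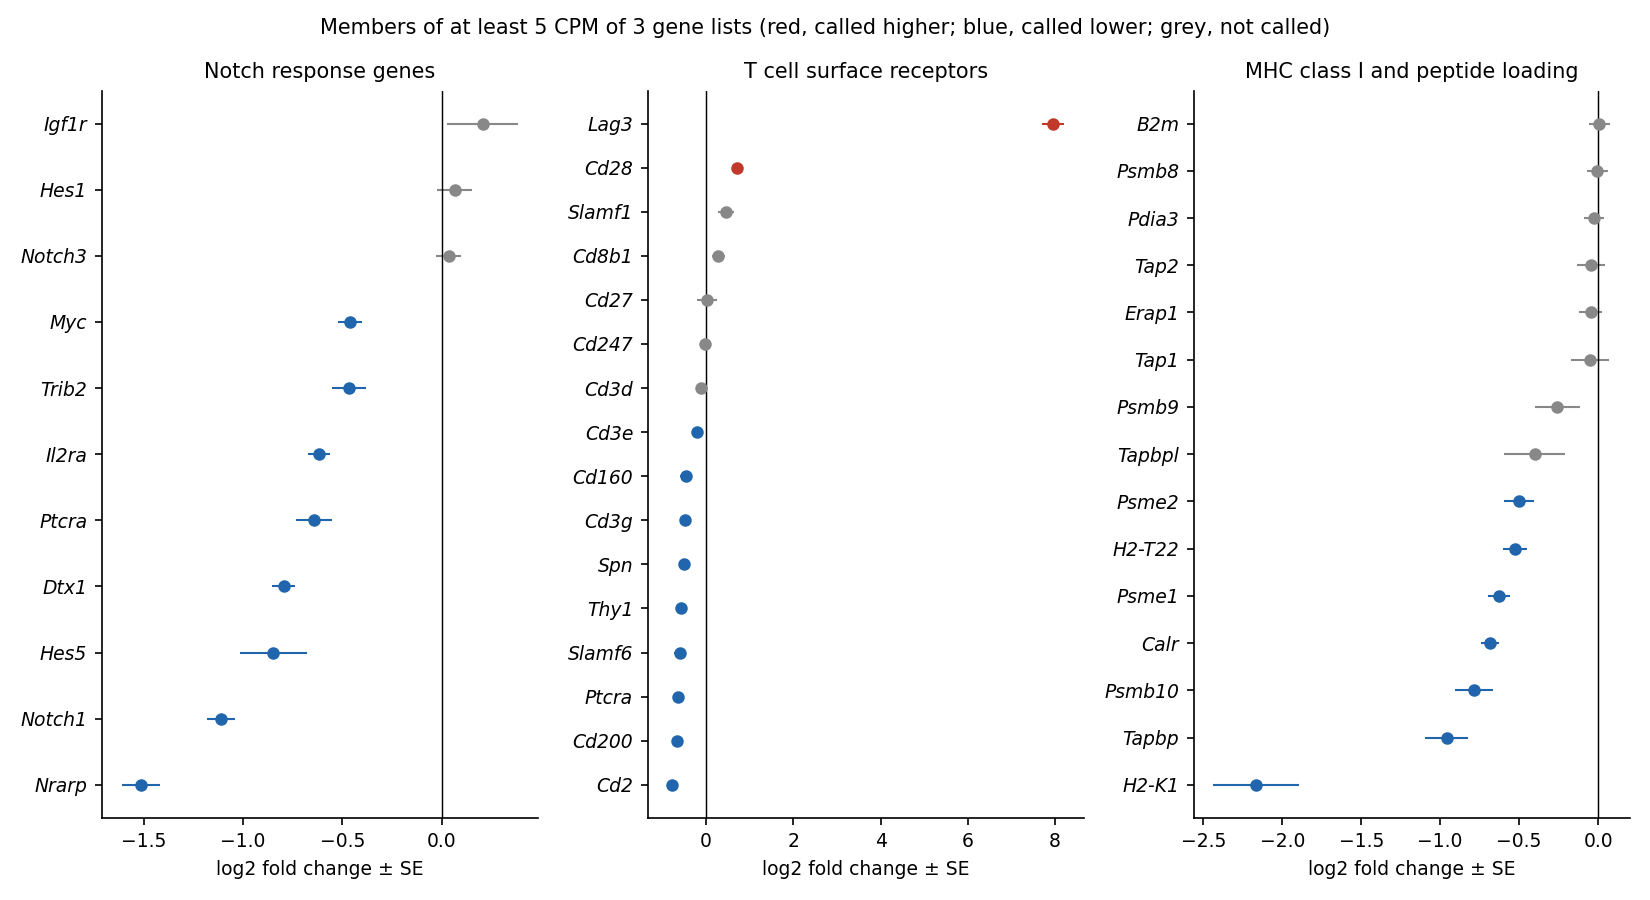
Log2 fold change (knockout minus empty vector) with its SE for the tested members of at least 5 CPM of 3 gene lists, 1 point per gene. Red points were called higher, blue points lower and grey points neither. In the Notch list the 8 blue points reach down to -1.52 (Nrarp), in the surface list Lag3 stands alone at 7.95, and in the class I list 7 blue points reach down to -2.17 (H2-K1).

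TCF-1's own relatives and partners moved in both directions. Lef1 stayed near its level, at 488 and 482 CPM against 451 and 483 CPM (-0.05, SE 0.06, adjusted p = 0.536), and its sign turned with the scaling (0.03 with upper-quartile factors). Ctnnb1, the gene of beta-catenin, was at 298 and 287 CPM against 295.1 and 294.6 CPM (0.01). The corepressor gene Tle3 fell from 229 and 216 CPM to 142 and 158 CPM (-0.57, SE 0.07) while Tle4 rose from 52.8 and 47.0 CPM to 65.4 and 72.6 CPM (0.47, SE 0.10). Bcl9, a cofactor of beta-catenin, rose by 0.71 (SE 0.11). Tcf7l2, another TCF gene, rose from 3.43 and 3.74 CPM to 8.63 and 7.24 CPM (1.15, SE 0.26). In all, 4 of 12 rose and 3 fell, beside 10.3% and 19.6% of all genes. The falls include Tcf7 itself, the targeted gene, whose fall was set by the design. Of the rises, Tcf7l2 and the corepressor gene Tle1 (1.00) reached 5 CPM on average only through the knockout. Tle1 changed by 0.96 without empty-vector library 1, and its call was lost in DESeq2. Among 5 Wnt feedback and target genes of at least 5 CPM, Myc fell (502 and 495 to 351 and 371 CPM; -0.46, SE 0.06), and Axin2 rose by 0.37 (adjusted p = 0.0464), a call that was lost without empty-vector library 1 (0.20), without knockout library 2 (0.32) and in DESeq2.

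Transcription factors of T cell commitment split evenly, with 6 of 27 higher and 6 lower (4 falls and 1 rise without empty-vector library 2, and 7 and 11 without knockout library 1). Over all genes the split was not even, with 10.3% higher and 19.6% lower. Bcl11b, which seals commitment, was read at 676 and 679 CPM against 644 and 721 CPM and its groups overlapped (0.01, SE 0.06). Gata3 was at 330 and 320 CPM against 347 and 360 CPM and did not pass (0.12, adjusted p = 0.144). It passed as higher with upper-quartile factors (0.20), in the fit on genes of at least 5 CPM (0.18), after the correction against level (0.26) and without knockout library 1 (0.15). Zfpm1, the GATA cofactor FOG-1, fell from 232 and 251 CPM to 147 and 161 CPM (-0.65, SE 0.07), and the zinc finger gene Hivep3 from 612 and 637 CPM to 363 and 447 CPM (-0.63, SE 0.08). Ikzf3, the Ikaros relative Aiolos, fell by 0.37 (SE 0.07) and Zbtb1, a zinc finger gene needed in lymphoid precursors, rose by 0.34 (SE 0.07).

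Of the few genes of other lineages above 5 CPM, 3 of 6 NK and innate lymphoid genes and 2 of 3 myeloid genes rose and none fell. Of all genes from 5 to 20 CPM, 14.7% were higher and 8.36% lower. Rora averaged 21.4 CPM, and from 20 to 100 CPM the shares were 9.73% and 17.0%. Gzma averaged 468 CPM, and from 100 CPM upward they were 7.43% and 33.1%. Eomes, a T-box factor of NK cells and cytotoxic T cells, rose from 8.56 and 8.65 CPM to 20.4 and 17.1 CPM (1.12, SE 0.18). Gzma, which encodes a granule protease, rose from 381 and 391 CPM to 565 and 533 CPM (0.51, SE 0.06). Cebpa, a factor of myeloid differentiation, rose from 8.665 and 8.542 CPM to 19.8 and 18.2 CPM (1.14, SE 0.17). Flt3, a cytokine receptor of early progenitors, rose from 4.94 and 1.71 CPM to 12.4 and 8.66 CPM (1.64, SE 0.36), though DESeq2 did not call it. Flt3 and Itgam reached 5 CPM on average only through the knockout. Lyz2, Mpo, Prf1 and Gzmb averaged under 0.2 CPM. The rise of Rora (0.70) was lost without empty-vector library 2 (0.47), as was the second myeloid gene, Itgam (0.85, then 0.60).

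Of 18 homing and adhesion genes, 7 rose and 7 fell, beside 10.3% and 19.6% of all genes. Of these, Itgae and Cxcr6 entered only through their knockout values and Plxnd1 only through those of the empty vector. Plxnd1, a semaphorin receptor that guides thymocytes, fell from 36.0 and 34.9 CPM to 4.50 and 5.34 CPM (-2.84, SE 0.17), and the chemokine receptor gene Ccr4 from 30.1 and 31.3 CPM to 15.9 and 13.2 CPM (-1.08, SE 0.14). Ccr9, the receptor for the thymic and gut chemokine CCL25, rose from 8.87 and 9.61 CPM to 23.8 and 19.5 CPM (1.23, SE 0.17). Itgae, the integrin chain that holds T cells in epithelia, rose from 5.34 and 3.31 CPM to 14.6 and 13.1 CPM (1.67, SE 0.24), and the chemokine receptor gene Cxcr6 rose by 1.26 (SE 0.26).

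Of 15 MHC class I and peptide-loading genes of at least 5 CPM, 7 fell, 0 rose and 8 did not pass, with a median of -0.40, beside 19.6% of all genes lower and 10.3% higher. H2-K1, a class I heavy chain, fell from 9.57 and 9.93 CPM to 2.43 and 1.90 CPM (-2.17, SE 0.27) and reached 5 CPM on average only through the empty vector. It is one of a family of near-identical genes, so reads may be split between its members. Among peptide-loading genes, Tapbp, the gene of tapasin, fell from 29.6 and 29.3 CPM to 15.1 and 15.2 CPM (-0.96, SE 0.13), Calr, the chaperone calreticulin, from 876 and 888 CPM to 538 and 560 CPM (-0.69, SE 0.06), and Psme1, a proteasome activator subunit, from 239 and 231 CPM to 159 and 146 CPM (-0.63, SE 0.07). B2m, the light chain of class I, stayed level at 168 and 164 CPM against 174 and 161 CPM (0.01), and Tap1 and Tap2, the peptide transporter genes, did not pass (-0.05 and -0.04). The number of falls was 7 or 8 under every one of 10 alternatives. Of 11 interferon-stimulated genes, 4 were lower and 1 higher, with a median of -0.26, and 2 had a log2 fold change above 0. In DESeq2 1 was lower, and with upper-quartile factors 2 were lower and 2 higher. Parp14 was among the falls (-0.62, SE 0.09). Mx1, an antiviral GTPase, was higher (16.7 and 16.8 to 32.2 and 27.2 CPM, log2 fold change 0.83, SE 0.14). Of 10 tested members under 5 CPM, 4 fell and 0 rose, beside 4.56% and 31.9% of all tested genes at that level.

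Cell cycle lists held falls at shares near that of all genes. Of 12 D cyclin and Cdk inhibitor genes, 3 fell and 1 rose, and of all genes 19.6% fell and 10.3% rose. Ccnd2 fell from 144 and 140 CPM to 94.5 and 94.6 CPM (-0.59, SE 0.07), Ccnd3 by 0.53 (SE 0.08) and their partner kinase gene Cdk6 from 896 and 905 CPM to 603 and 715 CPM (-0.45, SE 0.07), while Rb1 rose by 0.52 (SE 0.11). Of 34 replication and mitosis genes, 8 fell and 0 rose (median -0.12), again beside 19.6% of all genes lower, and 33.1% of genes of 100 CPM or more. Tyms, which makes thymidylate, fell by 0.60 (SE 0.09), and the mitotic genes Bub1b, Plk1 and Cdc20 fell by 0.38, 0.37 and 0.40. That count varied from 4 without empty-vector library 2 to 16 without knockout library 1, and 5 fell and 2 rose with upper-quartile factors. Of 13 p53 targets 3 rose, led by the antiproliferative gene Btg2 (56.5 and 58.4 to 110 and 113 CPM; 0.96, SE 0.08), and Aen fell (-0.34; lost without empty-vector library 1, -0.31). Of 9 Bcl2 family genes, 4 fell and 0 rose. Both Bmf (26.8 and 32.3 to 15.4 and 13.3 CPM; -1.04, SE 0.15) and Bak1 (80.5 and 91.4 to 54.1 and 54.6 CPM; -0.66, SE 0.09) promote cell death, as does Bid (-0.50, SE 0.09). Bcl2l1, which opposes it, passed at -0.47 and was lost without empty-vector library 1 (-0.41) and in DESeq2.

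Immediate early genes, the first to answer outside signals, were higher in 4 of 8 cases and lower in 1, beside 10.3% and 19.6% of all genes. Of the 4 rises, Junb and Nr4a2 entered only through their knockout values. The AP-1 gene Junb (3.53 and 3.52 to 9.61 and 6.41 CPM; 1.18, SE 0.28), the orphan nuclear receptor gene Nr4a2 (3.63 and 3.42 to 7.66 and 7.95 CPM; 1.14, SE 0.25) and Jund (23.9 and 26.1 to 36.5 and 36.2 CPM; 0.54, SE 0.12) rose. In the Myc, Max and Mxd network, 4 of 10 genes fell and 2 rose. Mnt, a repressor that competes with Myc for Max, fell from 63.1 and 55.0 CPM to 38.1 and 44.0 CPM (-0.52, SE 0.11), and Mxd4, another such repressor, rose from 63.5 and 64.5 CPM to 82.4 and 82.5 CPM (0.37, SE 0.08). Of 13 common gamma chain receptor and signalling genes, 3 fell, Il2ra among them, and 2 rose (1 and 1 in DESeq2). Of the 2 rises, Il21r entered only through its knockout values.

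Metabolic and stress lists showed opposing members. For comparison, 10.3% of all genes rose and 19.6% fell, and of genes of 100 CPM or more 7.43% rose and 33.1% fell. Of 22 glycolysis and hypoxia genes, 9 fell and 4 rose, and Ndrg1 entered only through its knockout values. Hk1, which starts glucose breakdown, fell from 304 and 319 CPM to 188 and 189 CPM (-0.72, SE 0.06), as did Pfkp (-0.72, SE 0.11) and Gapdh (-0.43, SE 0.06), while the hypoxia-induced genes Ndrg1, Bnip3 (4.74 and 6.94 to 21.2 and 17.3 CPM; 1.72, SE 0.21) and P4ha1 (0.67, SE 0.08) rose. Cholesterol synthesis genes leaned upward, with 7 of 21 higher and 2 lower (median 0.12), for example Hmgcs1 (330 and 332 to 419 and 428 CPM; 0.36, SE 0.06) and Cyp51 (0.37, SE 0.06). Without empty-vector library 1 this was 2 higher and 0 lower, and without library 2 it was 4 and 0. Of 13 integrated stress response genes, 8 fell, among them Psat1 (310 and 326 to 236.6 and 236.6 CPM; -0.43, SE 0.06), Shmt2 (-0.40) and Atf4 (-0.35), and the cystine transporter gene Slc7a11 rose (37.6 and 34.8 to 68.3 and 91.6 CPM; 1.14, SE 0.13). The 8 falls became 3 without empty-vector library 1 and 4 without library 2, in DESeq2, and with upper-quartile factors.

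Because the series concerns genome folding, genes of chromatin architecture were looked at as well. Of 17 cohesin, CTCF and looping genes, 2 rose and 2 fell (median -0.07). Beside this list and the next, 10.3% of all genes rose and 19.6% fell. Ctcf was at 313 and 310 CPM against 278 and 300.4 CPM and did not pass (-0.11, adjusted p = 0.211), though it passed as lower without knockout library 2 (-0.15) and changed sign after the correction against level (0.02). The cohesin genes Smc1a (-0.26) and Rad21 (-0.20) passed as lower and were lost without empty-vector library 1 (-0.24 and -0.19) or library 2 (-0.28 and -0.21), and after the correction against level. Without knockout library 2, 8 genes of this list fell. Of 19 condensin, lamin and nuclear envelope genes, 8 fell and 1 rose (3 falls without empty-vector library 1, without library 2, or with upper-quartile factors). The high-mobility-group genes Hmgn1, Hmgn2 (-0.38, SE 0.08) and Hmga1 (96.1 and 88.4 to 61.0 and 62.7 CPM; -0.58, SE 0.08) were among the falls.

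Chromatin regulators fell in 14 of 34 cases and rose in 3 (median -0.22; 9 and 3 with genes of at least 5 CPM alone in the fit, 9 and 2 without empty-vector library 1). Of all genes of at least 5 CPM, 19.6% fell and 10.3% rose. The maintenance DNA methyltransferase gene Dnmt1 fell from 969 and 1021 CPM to 735 and 791 CPM (-0.38, SE 0.06). The remodeller genes Chd4 (1722 and 1672 to 1153 and 1363 CPM; -0.43, SE 0.07) and Arid1a (846 and 828 to 547 and 672 CPM; -0.46, SE 0.08) also fell. For both, knockout library 2 lay closer to the empty vector than knockout library 1 did. These are among the most read genes of the line, and of all genes of 100 CPM or more 33.1% fell and 7.43% rose.

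**Figure D4:**
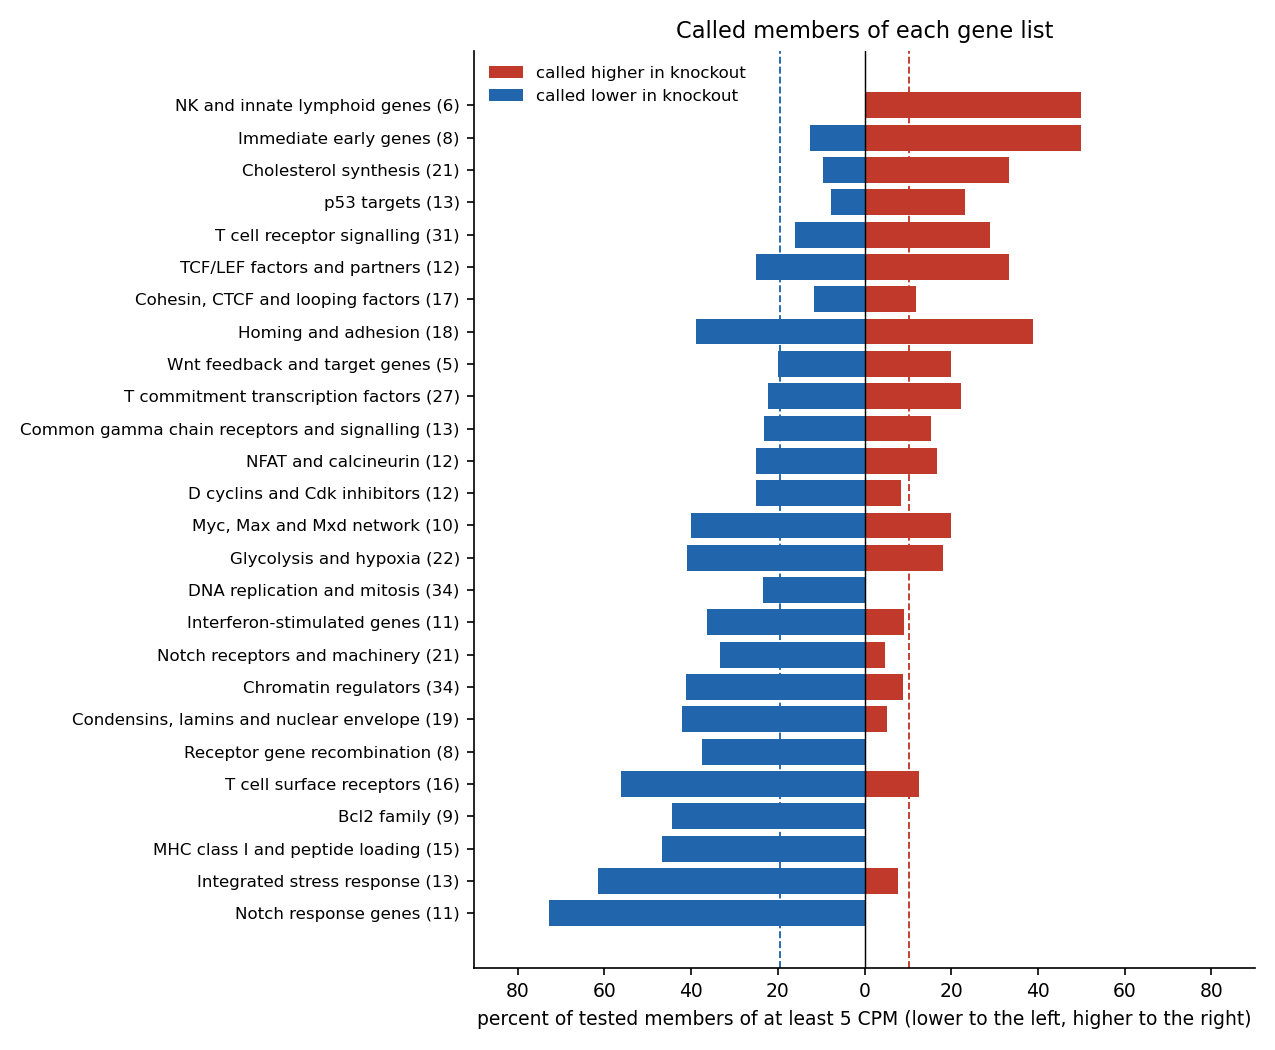
Share of each list's tested members of at least 5 CPM called lower (blue, to the left) or higher (red, to the right) in the knockout, for lists with at least 5 such members, with their number in brackets. Dashed lines mark the shares over all genes of at least 5 CPM, 19.6% lower and 10.3% higher. The bar of the Notch response genes reaches farthest to the left.

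Across the 32 lists, 413 genes were tested at 5 CPM or more, each counted once. Of these, 69 were higher and 126 lower, beside 10.3% and 19.6% over all genes. Among the genes with the most reads, the rises were slight: Tfrc, the transferrin receptor, went from 760 and 775 CPM to 987 and 1019 CPM (0.39, SE 0.06), and Ptprc, the phosphatase CD45, from 911 and 905 CPM to 1103 and 1122 CPM (0.29, SE 0.05). Ptprc was lost without empty-vector library 1 (0.30) or library 2 (0.29), although its change was the same size. The translation elongation factor gene Eef2 fell from 5404 and 5414 CPM to 4532 and 4654 CPM (-0.24, SE 0.05), with the same loss of its call (-0.24 and -0.23), and turned to 0.06 after the correction against level.

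**Figure D5:**
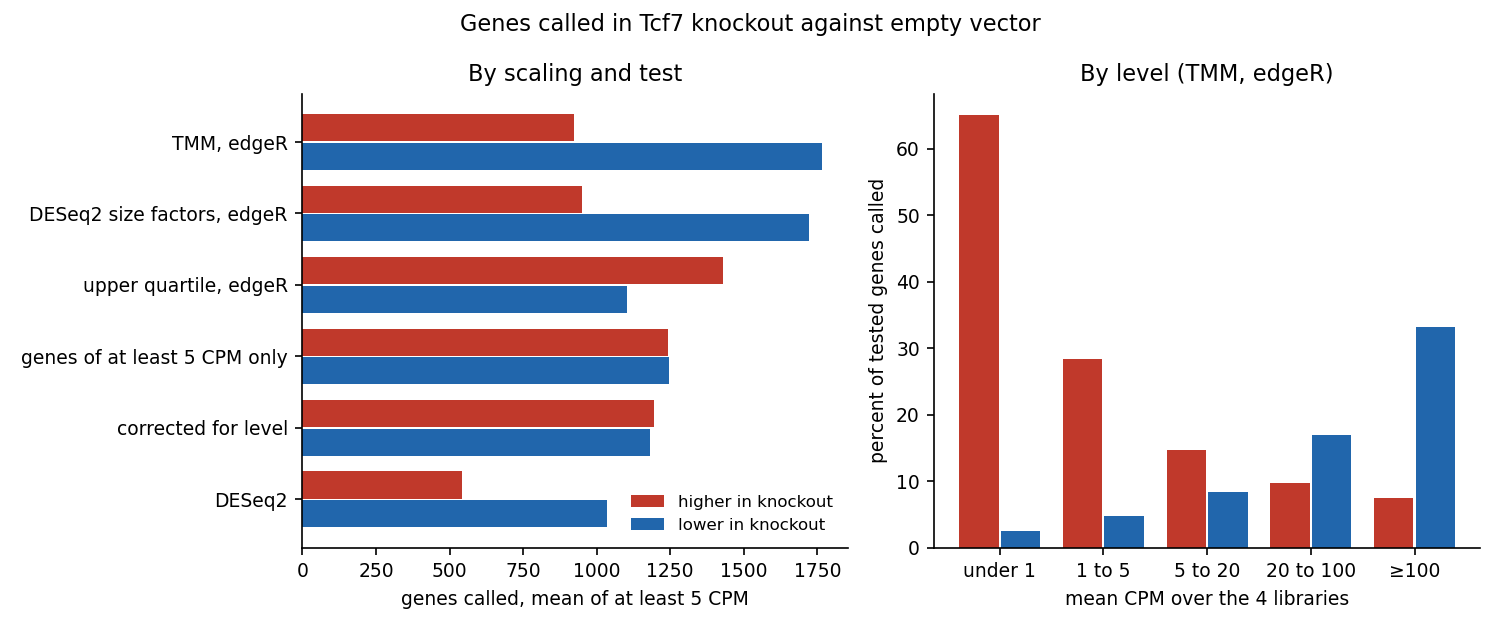
Left, number of genes of at least 5 CPM called higher (red) or lower (blue) under 6 ways of scaling or testing, with bars from 0. Right, percent of tested genes called higher or lower by class of mean CPM. The lower calls lead with TMM factors (1765 against 923) and the higher calls with upper-quartile factors (1428 against 1103), and below 5 CPM the red bars exceed the blue ones.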

How the data were processed

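Gene counts were deposited by the authors as raw read counts, 1 file per library. Per the submitters' processing notes, STAR 2.5.0a, HTSeq 0.6.1 and GRCm38 (mm10) were used. Per the labels' protocols, total RNA went into a stranded low-input kit with paired reads. Which annotation release and strand setting the counting used is not stated in the sources used here, nor is duplicate removal. The 5 summary rows were left out (ambiguous reads, 2.20% to 2.44%), leaving 31053 genes, 31011 of them in GENCODE M21.

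The 4 libraries were fitted alone: filterByExpr, TMM, edgeR 4.0.16's robust quasi-likelihood F-test in R 4.3.3 with Benjamini-Hochberg adjustment over 11941 tested genes (biological coefficient of variation 5.94%). Adjusted p-values come from this test unless DESeq2 1.42.0 is named. Log2 fold changes are knockout minus empty vector, taken from the edgeR fit at its default setting. A prior count of 2 entered only the log CPM values behind the level correction and the correlation of same-numbered libraries. Replicates differed beyond sampling noise, with a chi-square per degree of freedom of 1.97 between the empty-vector libraries and 6.89 between the knockout libraries. Totals from 7740198 to 10392402 counts limit precision below 5 CPM. The fit was tested on simulated counts.

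The members and lists were chosen with earlier results of these data known. Named genes are Tcf7, Lef1, Lag3, Notch1, the 12 largest rises and falls among called, non-overlapping named genes of at least 5 CPM, the 5 most read calls per direction and up to 4 calls per list, smallest p first. Hes1, Hes5, Numbl, Maml1, Maml3, Rbpj, Trib2, Notch3, Ptcra, Cd3d, Cd3e, Cd28, Tcf7l2, Tle1, Col1a1, Col1a2, Pdgfra, Cebpb, Id2, Tbx21, Nfil3, Ctnnb1, Bcl11b, Gata3, Itgae, Cxcr6, B2m, Tap1, Tap2, Pfkp, Gapdh, Rag1, Ctcf, Wrb, Sh3bgr and the Y-linked genes were added after their values were seen. Alternatives were other scalings, tests, filters and level limits, a replicate block and each library left out. Some results are not reported here.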

Additional observations from a re-analysis of the deposited data

Results flagged for a closer look

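Reads that fell outside any gene, which no comparison of gene counts uses, took 22.3% of all reads in knockout library 1 and 25.8% in knockout library 2, against 21.3% and 21.6% with the empty vector. Both knockout values lie above both empty-vector values, and the difference was not tested. The knockout libraries were less alike than the empty-vector libraries (chi-square per degree of freedom 6.89 against 1.97). With 2 libraries per group, which library of a pair is the outlying one cannot be told.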

How the results depend on the processing

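The counts of genes called moved with the processing. Calls higher in the knockout numbered 1428 with upper-quartile factors, 542 in DESeq2, 615 without a filter, 138 against 1.5-fold, 1677 from 1 CPM and 606 from 20 CPM, and 562 to 1184 when a library was left out. Calls lower numbered 1103 with upper-quartile factors, 1036 in DESeq2, 109 against 1.5-fold, and 1033 to 2089 when a library was left out. Without empty-vector library 1 the calls were 562 and 1033, and without library 2 they were 633 and 1061. Tcf7 was called lower under every alternative (-0.86 to -1.11). Upper-quartile factors called 923 of the 923 genes higher again and 1103 of the 1765 genes lower. No scaling moved the median of all genes by more than 0.08. Same-numbered libraries of the groups did not deviate together (correlation -0.02), so the numbers do not pair them; with the replicate block 1037 genes were higher and 1856 lower, and of the named calls Stag2 alone was lost. Of 179 named genes called, 61 kept direction and call in every alternative, the test against 1.5-fold included. Signs turned for genes near 0: Lef1 to 0.0256 (upper quartile), 0.00232 (genes of at least 5 CPM alone) and 0.103 (level correction), Eef2 to 0.0625 and Ctcf to 0.0237 (level correction). Without a filter, Notch3 turned to -0.0207, Bcl11b to -0.0446, Ctnnb1 to -0.0442 and B2m to -0.0481. With a library left out, Trbc2 ranged from -0.0256 to 0.309, Ctnnb1 from -0.0135 to 0.0372, Bcl11b from -0.0584 to 0.0920 and B2m from -0.0484 to 0.0772. The cause was not tested.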

Other observations

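Below 5 CPM, 69 tested genes of the lists held 28 rises and 6 falls, beside 31.9% and 4.56% of all tested genes at that level. Runx3, a Runt factor of cytotoxic T cells, went from 1.71 and 1.28 CPM to 5.84 and 8.545 CPM (log2 fold change 2.25, SE 0.34), and Sox13, a factor of gamma-delta T cells, from 2.42 and 1.495 CPM to 9.485 and 4.75 CPM (1.85, SE 0.38). Fas, the death receptor, went from 1.01 and 0.534 CPM to 7.05 and 6.29 CPM (3.08, SE 0.37), and Hoxa10, a homeobox gene of progenitors, from 0.705 and 0.534 CPM to 2.92 and 3.44 CPM (2.33, SE 0.42). Socs1, an inhibitor of cytokine signalling, rose by 2.90 (SE 0.55). Against this direction, Fcer1g, a signalling chain of Fc and NK receptors, fell from 6.65 and 7.37 CPM to 1.34 and 1.42 CPM (-2.33, SE 0.31), and the class I gene H2-D1 from 7.36 and 6.41 CPM to 3.04 and 2.49 CPM (-1.31, SE 0.28). Oas2, which makes the messenger of an antiviral pathway, fell by 1.30 (SE 0.29). All of these genes were chosen after their values were seen.

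All 4 genes of the Y chromosome of at least 5 CPM fell. Ddx3y, an RNA helicase gene, went from 132 and 138 CPM to 78.4 and 69.9 CPM (-0.86, SE 0.08), the histone demethylase gene Kdm5d from 63.3 and 53.1 CPM to 33.2 and 31.6 CPM (-0.85, SE 0.11), and Uty from 44.8 and 46.0 CPM to 32.0 and 26.4 CPM (-0.64, SE 0.12). The gene model Gm47283 passed at -0.65 and was lost without empty-vector library 1 (-0.66) or 2 (-0.63) and without knockout library 2 (-0.56). On chromosome 13, 18.4% of 380 genes were higher, against 10.3% of all genes, and on chromosome 15, 25.1% of 363 genes were lower, against 19.6% of all genes. Chromosome copy number in the libraries was not measured here.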
